A study of Homo sapiens with 36 samples.

Results

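CCRF-CEM cells come from a human T-cell leukaemia and normally make SLFN11, a Schlafen family protein recruited to stalled replication forks. The comparison described here concerns the SLFN11 knockout derivative of that line, after 6 h and after 12 h in 250 nM camptothecin. It rests on 6 arrays of the 36 in the study, 3 per time, chosen by the genotype and treatment in their labels. Titles of replicates 2 and 3 at 12 h leave out the drug, but their treatment entry gives it. The other 12 CCRF-CEM arrays are the untreated knockout cells and the parent cells, untreated and at the same 6 h and 12 h, with 3 arrays in each group. DU145, a prostate carcinoma line, supplied a second knockout with the same times and 18 arrays in all. The sources used here do not say whether the knockout is a clone or a pool, where the gene was edited, whether replicates are separate cultures, or when control cells were harvested. The p-values therefore measure the spread between arrays, which may be technical, and loss of SLFN11 cannot be told apart from other traits of this knockout line.

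Camptothecin traps topoisomerase I on DNA, so that replication forks collide with the trapped complex and RNA polymerase stalls while elongating. Cells with such lesions normally halt in S and G2 phase through the ATR and CHK1 kinases. The genes of mitosis are normally repressed through their promoters until G2. Sterol and fatty acid synthesis is driven by the SREBP transcription factors, which INSIG proteins hold in the endoplasmic reticulum when sterols are plentiful. MYC promotes transcription of the machinery that builds ribosomes.

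Values are log2 probe-set signals, so that a difference of 1 is a 2-fold change, and each gene is given by its brightest probe set. The targeted gene was examined first. SLFN11 read 10.16, 10.03 and 10.05 at 6 h and 10.05, 9.85 and 10.06 at 12 h in knockout cells. These values overlap, and the change was -0.09 (limma adjusted p = 0.756). None of its 11 probe sets passed between the times. The brightest was higher in knockout than in parent cells. Parent cells read 9.27, 9.28 and 9.40 at 6 h and 9.02, 8.92 and 9.06 at 12 h. The next brightest, 16843410, had means of 10.08 and 10.05 in knockout cells against 9.298 and 9.305 in parent cells. Probe set 16843409, singled out after its values were seen, had means of 8.11 and 8.28 in knockout cells against 8.78 and 8.59 in parent cells. The other probe sets went either way. A probe set outside the edited stretch checks nothing, so the label is tested only in part, and the brightest probe sets do not bear it out. The cell type was checked by its markers. Of 17 measured T-lineage markers 14 were higher on all 6 arrays than on every treated DU145 knockout array, which held for 17.5% of all genes. Of 10 epithelial markers 7 were lower on all 6 arrays, against 18.3% of all genes, and 1 was higher on all 6. None of the 17 T-lineage markers passed between the times, and their mean level was 10.0 to 10.1 at 6 h and 9.88 to 9.98 at 12 h. Arrays of 1 time correlated at r of 0.982 to 0.985 across genes and arrays of different times at 0.980 to 0.983, so the times differ little over all genes.

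Between 6 h and 12 h the genes that rose in the knockout cells included 7 mitotic genes, ACTN1 and FERMT2, and those that fell included genes of sterol and fatty acid synthesis, MYC and ribosome assembly factors. Of 22260 genes 115 passed at an adjusted p below 0.05, which is 0.517%, with 80 higher at 12 h (0.359%) and 35 lower (0.157%). By at least 2-fold, 18 genes were higher and 3 lower. Over all genes the median change was -0.02, and 46.5% of the changes were positive. In parent cells 1287 genes passed over the same interval (5.78%), 668 higher and 619 lower. The difference between those counts is not itself a test, and the genes whose change differed are given further below.

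Most of these calls rest on the size of the design. The fit takes its spread from all 18 CCRF-CEM arrays. With only the 6 arrays compared, 0 genes passed, although 3205 had an unadjusted p below 0.05 in the 18-array fit. Without replicate 1, 2 or 3 of the 6 h arrays 33, 21 and 51 genes passed, and without replicate 1, 2 or 3 of the 12 h arrays 109, 28 and 30 did. The arrays of the 2 times do not overlap for any of the 115, so that a lack of overlap adds nothing to a call. For the same reason no called gene could change sign when an array was left out, and none did. Only 15 of the 115 genes passed under all 6 omissions, 11 higher and 4 lower. Those were LINC01619, TRAJ30, TMEM71, ADTRP, ZFYVE16, ACTN1, DYNC2H1, TNRC6B, PRR11, HMMR and CCDC14, and in the other direction MSMO1, FASN, MTRNR2L2 and INSIG1. Of the 107 called genes with 2 or more probe sets, the median probe set moved in the called direction for 102.

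**Figure D1:**
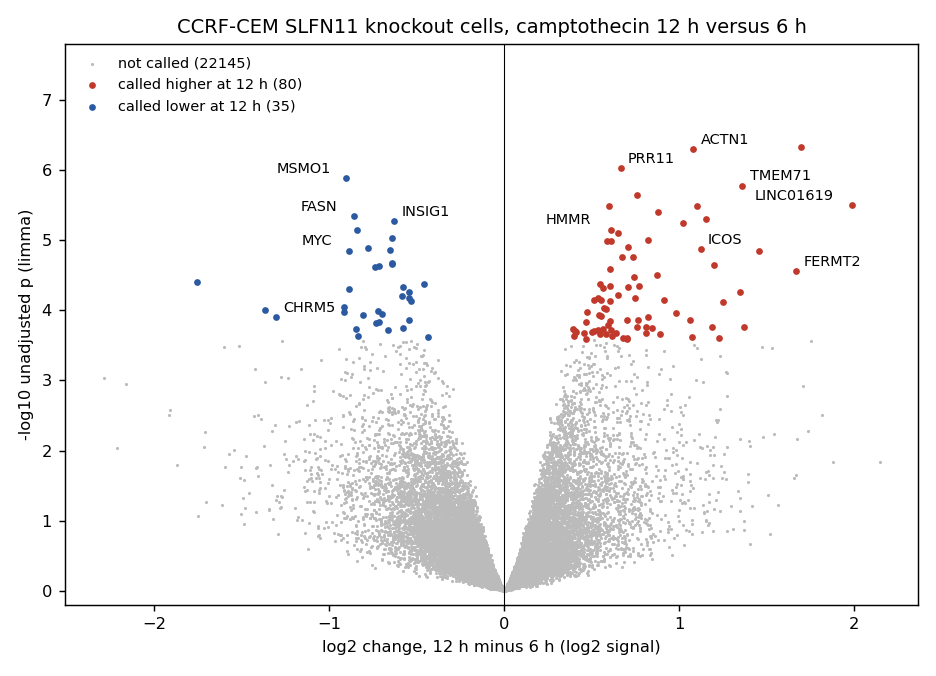
Change of each gene between 6 h and 12 h of camptothecin in CCRF-CEM SLFN11 knockout cells (horizontal axis, log2 signal) against its unadjusted p in limma (vertical axis, -log10). Each point is 1 of 22260 genes; red points are the 80 genes called higher at 12 h and blue points the 35 called lower, and ACTN1, PRR11, MSMO1 and FASN stand near the top.

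Mitotic genes leaned up. Of 45 measured genes 7 rose, 0 fell and 38 did not pass, against 0.359% of all genes called higher. The median change was 0.31, beside -0.02 over all genes, and 44 of the 45 changes were positive, with FOXM1 at -0.00. In 34 of the 45 all arrays at 12 h lay above all arrays at 6 h, which held for 9.48% of all genes. KIF20A, a kinesin of the central spindle, read 10.12, 10.08 and 10.22 at 6 h and 10.80, 10.94 and 10.88 at 12 h. It rose by 0.74 ± 0.13 (log2 change ± SE, n = 3 arrays per time, limma adjusted p = 0.0195). The 2 times do not overlap, and the gap between them is larger than the spread within either. DLGAP5, a spindle protein that stabilises kinetochore fibres, read 11.21, 11.18 and 11.38 and then 11.86, 11.98 and 11.88. It rose by 0.65 ± 0.10 (limma adjusted p = 0.0104), and all 22 of its probe sets were positive. HMMR, a microtubule-binding protein that helps assemble the spindle, read 9.98, 10.14 and 10.25 and then 10.62, 10.73 and 10.86. Its rise of 0.61 ± 0.09 (limma adjusted p = 0.0101) was called whichever array was left out. PLK1, the kinase that drives entry into and passage through mitosis, read 11.62, 11.91 and 11.70 and then 12.33, 12.18 and 12.41. It rose by 0.56 ± 0.10 (limma adjusted p = 0.0230), with all 16 probe sets positive. The remaining 3 were the centromere kinesin KIF2C (0.70), the kinesin KIF20B (0.57) and NUSAP1 (0.41), which bundles spindle microtubules. KIF2C and NUSAP1 were not called without any 1 of the 6 arrays.

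Several members missed the threshold with large changes. CENPE, the kinetochore kinesin, changed by 0.63 (adjusted p = 0.0529) and TOP2A, the topoisomerase that untangles chromosomes, by 0.38 (adjusted p = 0.0529), with all 34 of its probe sets positive. CENPF stood at 0.49, the cyclins CCNB2 and CCNB1 at 0.48 and 0.43, and securin, PTTG1, at 0.68 (adjusted p = 0.223). PRR11 and CDKN3, outside the list and chosen after their values were seen, rose by 0.67 and 0.59. PRR11 was called whichever array was left out, and all 10 of its probe sets were positive. PRR11 is a cell cycle gene and CDKN3 a phosphatase of cyclin-dependent kinases. Without replicate 1, 2 or 3 of the 6 h arrays 2, 2 and 4 of the 45 passed, and without replicate 1, 2 or 3 of the 12 h arrays 5, 2 and 2, with the list's median between 0.29 and 0.34.

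Set beside untreated cells, the mitotic genes were low at 6 h and nearer the control at 12 h. These comparisons share arrays with the one above and add no independent evidence of its direction. At 6 h 23 of the 45 were lower than in untreated knockout cells (2.92% of all genes were) with a median of -0.38, and at 12 h 8 were lower and 1 higher (2.81% and 5.4% of all genes) with a median of -0.07. PLK1 was 1.18 below its control at 6 h and 0.62 below at 12 h. HMMR was 1.28 and 0.67 below. DLGAP5, at 11.91 ± 0.08 (SD, n = 3) in control cells, was 0.65 below at 6 h (adjusted p = 0.00106) and 0.00 away at 12 h (adjusted p = 0.996). KIF20B was 0.42 above its control at 12 h (adjusted p = 0.0249). Some members thus stayed below their untreated level at 12 h and others did not.

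**Figure D2:**
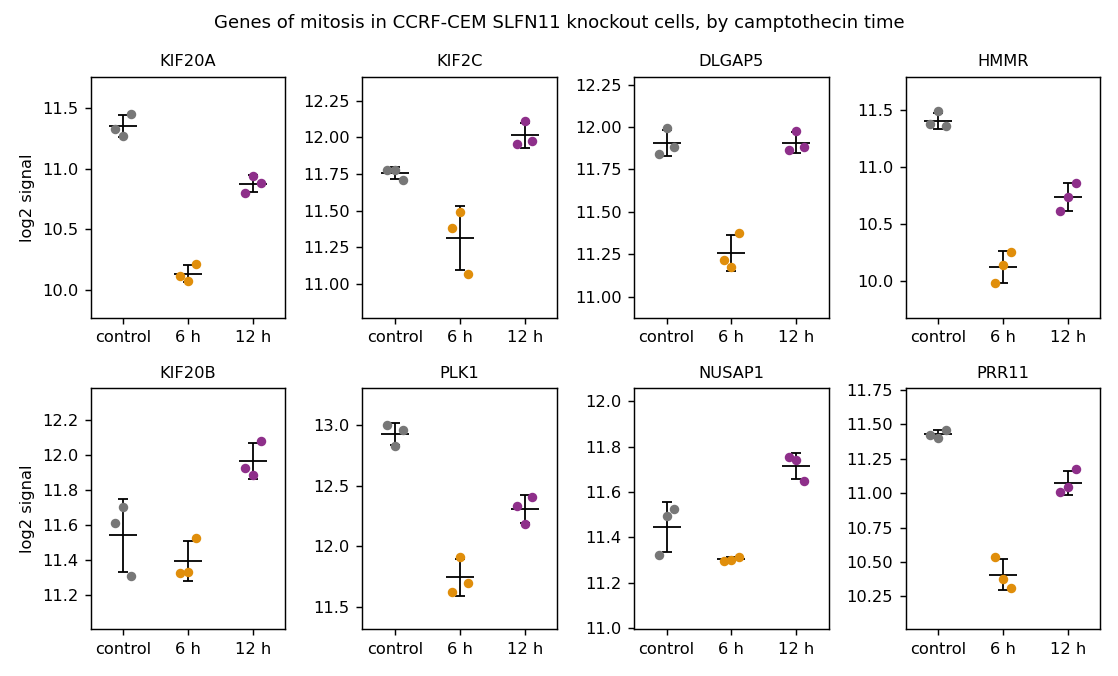
Log2 signal (vertical axes) of the 7 called mitotic genes and of PRR11 in CCRF-CEM SLFN11 knockout cells, untreated and at 6 h and 12 h of camptothecin. Points are the 3 arrays of a group and bars the mean and SD; in every panel the 3 arrays at 12 h lie above the 3 at 6 h, and for PLK1, HMMR, KIF20A and PRR11 they also lie below the 3 control arrays.

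In parent cells the same interval moved the list less evenly. There 3 of the 45 rose and 1 fell (3% and 2.78% of all genes), with a median of 0.12. PLK1 rose in parent cells too, by 0.46, whereas CCNB1 stood at -0.40, ECT2, an activator of the GTPase that drives cytokinesis, at -0.31, and HMMR at -0.04. The genotype difference, parent change minus knockout change, passed for 3 members, HMMR (-0.66, adjusted p = 0.0344), CCNB1 (adjusted p = 0.0318) and ECT2 (adjusted p = 0.0449), all negative, where 0.503% of all genes passed below 0. In DU145 knockout cells 2 members rose and 4 fell (0.615% and 0.476% of all genes), with a median of -0.07. The DU145 change minus the CCRF-CEM change passed for 10 members, all negative, against 0.4% of all genes. It was -1.32 for KIF20A, -1.33 for the centromere histone CENPA, -1.06 for CCNB1 and -0.90 for PLK1.

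Promoters of the called mitotic genes are shown for elements known from the control of such genes. These are the CCAAT box bound by NF-Y and the cell cycle homology region with the letters TTTGAA. Sequences are RefSeq promoters of GRCh38.p14 from 250 bases before to 50 bases after the start site, read 5′ to 3′ on the strand of the gene. Capitals mark CCAAT and TTTGAA on either strand, where the reverse complements read ATTGG and TTCAAA.
PLK1, chr16:23678639-23678938, plus strand: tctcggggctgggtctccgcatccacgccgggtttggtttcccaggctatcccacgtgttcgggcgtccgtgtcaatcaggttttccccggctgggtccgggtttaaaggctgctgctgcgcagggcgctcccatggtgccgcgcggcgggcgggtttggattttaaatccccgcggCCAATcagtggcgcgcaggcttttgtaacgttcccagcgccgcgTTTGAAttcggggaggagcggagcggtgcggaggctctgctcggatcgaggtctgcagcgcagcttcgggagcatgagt
HMMR, chr5:163460382-163460681, plus strand: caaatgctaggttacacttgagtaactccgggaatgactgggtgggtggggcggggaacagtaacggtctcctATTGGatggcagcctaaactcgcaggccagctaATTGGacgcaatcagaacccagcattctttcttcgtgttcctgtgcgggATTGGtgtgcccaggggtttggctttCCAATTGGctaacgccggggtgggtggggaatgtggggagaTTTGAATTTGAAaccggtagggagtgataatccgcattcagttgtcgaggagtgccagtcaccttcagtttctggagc
DLGAP5, chr14:55191536-55191835, minus strand: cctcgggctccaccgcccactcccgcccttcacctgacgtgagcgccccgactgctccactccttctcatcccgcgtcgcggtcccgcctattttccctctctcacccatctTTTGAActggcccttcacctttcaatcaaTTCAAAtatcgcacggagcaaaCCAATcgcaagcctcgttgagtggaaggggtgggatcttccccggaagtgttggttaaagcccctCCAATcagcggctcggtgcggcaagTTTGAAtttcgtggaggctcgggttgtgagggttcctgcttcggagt
NUSAP1, chr15:41332631-41332930, plus strand: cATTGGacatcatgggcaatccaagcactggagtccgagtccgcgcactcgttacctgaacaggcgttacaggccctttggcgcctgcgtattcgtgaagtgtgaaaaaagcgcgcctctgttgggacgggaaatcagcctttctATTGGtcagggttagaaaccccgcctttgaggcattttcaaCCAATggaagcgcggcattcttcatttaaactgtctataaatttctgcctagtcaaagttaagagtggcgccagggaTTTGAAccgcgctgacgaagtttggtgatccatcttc
KIF20B, chr10:89701340-89701639, plus strand: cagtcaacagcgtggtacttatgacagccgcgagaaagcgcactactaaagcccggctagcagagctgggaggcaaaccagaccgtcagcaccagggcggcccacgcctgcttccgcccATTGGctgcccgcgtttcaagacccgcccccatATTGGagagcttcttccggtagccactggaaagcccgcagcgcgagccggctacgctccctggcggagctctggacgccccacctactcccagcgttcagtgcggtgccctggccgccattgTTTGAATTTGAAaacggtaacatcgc
KIF20A, chr5:138178862-138179161, plus strand: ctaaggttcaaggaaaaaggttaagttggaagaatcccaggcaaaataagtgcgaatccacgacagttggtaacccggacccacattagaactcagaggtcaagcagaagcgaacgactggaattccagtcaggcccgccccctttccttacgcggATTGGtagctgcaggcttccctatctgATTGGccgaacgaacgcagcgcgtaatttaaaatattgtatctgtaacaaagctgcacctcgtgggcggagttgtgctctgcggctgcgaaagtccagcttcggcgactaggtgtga
Promoters were found for 38 of the 45 mitotic genes. Of these 31 (81.6%) hold CCAAT and 26 (68.4%) hold TTTGAA, against 36.1% and 12.3% of the 15873 promoters of genes tested. All 7 called members matched a promoter, and 6 hold CCAAT and 5 TTTGAA. KIF2C holds neither in this window and KIF20A holds CCAAT without TTTGAA. In PLK1 the CCAAT box begins at -73 and TTTGAA at -29 from the start site. In HMMR the letters TTTGAA occur in direct repeat, beginning at -28 and -22, and in KIF20B such a repeat lies after the start site, at 25 and 31. Among all 64 promoters of genes called higher 39.1% hold CCAAT and 23.4% TTTGAA. These shares include the mitotic genes, and a match describes the letters and not a bound site.

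MSMO1, FASN and INSIG1, all of lipid synthesis, were 3 of the 4 genes that fell whichever array was left out. MSMO1, which removes methyl groups from sterol precursors, read 10.79, 10.59 and 10.87 at 6 h and 9.73, 9.89 and 9.90 at 12 h. It fell by 0.91 ± 0.11 (log2 change ± SE, n = 3 arrays per time, limma adjusted p = 0.00725), which is 1.87-fold. FASN, the fatty acid synthase, read 10.68, 10.86 and 10.45 and then 9.69, 9.85 and 9.88. It fell by 0.86 ± 0.12 (limma adjusted p = 0.00904), and all 33 of its probe sets were negative. For both genes the lowest array at 6 h lay more than 0.5 above the highest at 12 h. INSIG1, the sterol-sensing brake on SREBP, read 11.70, 11.71 and 11.71 and then 11.04, 11.18 and 11.02, a fall of 0.63 ± 0.09 (limma adjusted p = 0.00904). SCD, the desaturase that makes monounsaturated fatty acids, fell by 0.53 ± 0.10 (limma adjusted p = 0.0277), from 12.22, 12.17 and 12.18 to 11.69, 11.65 and 11.63. MSMO1, FASN and SCD lie outside the sterol list, and SCD was chosen after its values were seen. SCD was not called without any 1 of the 6 arrays.

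Of 14 measured sterol synthesis genes 0 rose, 3 fell and 11 did not pass, against 0.157% of all genes called lower, with a median of -0.40. In 13 the change was negative, and in 10 all arrays at 12 h lay below those at 6 h, which held for 9.56% of all genes. LSS, which closes lanosterol's rings, fell by 0.71 ± 0.12 (limma adjusted p = 0.0156) from 9.75, 9.87 and 9.81 to 9.25, 8.94 and 9.10. DHCR7, the last enzyme of cholesterol synthesis, fell by 0.65 ± 0.10 (limma adjusted p = 0.0116). HMGCS1, which makes HMG-CoA, changed by -0.58 (adjusted p = 0.0518), SREBF2, the gene of SREBP2, by -0.50 (adjusted p = 0.0531) and FDFT1, the squalene synthase, by -0.47 (adjusted p = 0.0591), short of the threshold. STARD4, a cholesterol carrier, was the member with a positive change, at 0.12. Without replicate 1 of the 6 h arrays INSIG1 alone of the list passed, without replicate 2 or 3 of them or of the 12 h arrays 2 members passed, and without replicate 1 of the 12 h arrays 3 did.

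Against untreated knockout cells 5 of the 14 were higher at 6 h (3.52% of all genes), with a median of 0.37. At 12 h 2 were higher and 1 lower (5.4% and 2.81% of all genes), with a median of -0.09. LSS was 0.65 above its control at 6 h and 0.06 below it at 12 h. SCD was 0.62 above and then 0.09 above. MSMO1 and FASN went below their controls at 12 h, by 0.58 and 0.57 (adjusted p = 0.00674 and 0.0101). Parent cells had a like list median, -0.42, with 8 of 14 lower (2.78% of all genes), and the genotype difference passed for 0 of the 14, with a median of 0.01. MSMO1 differed between the genotypes, since parent cells changed by -0.10 and the difference was 0.81 (adjusted p = 0.0382). In DU145 knockout cells the list's median was -0.15, with 1 member lower (0.476% of all genes).

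Promoters of 3 of these genes are shown because they share the CCAAT box with the mitotic genes, which moved the other way. Capitals mark CCAAT and its reverse complement.
MSMO1, chr4:165327419-165327718, plus strand: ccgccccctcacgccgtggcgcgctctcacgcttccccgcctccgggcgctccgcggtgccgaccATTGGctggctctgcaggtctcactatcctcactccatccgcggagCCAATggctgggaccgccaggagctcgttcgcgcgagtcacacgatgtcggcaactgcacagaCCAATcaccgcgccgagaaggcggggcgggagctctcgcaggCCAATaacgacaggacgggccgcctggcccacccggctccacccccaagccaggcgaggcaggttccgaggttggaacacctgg
LSS, chr21:46228725-46229024, minus strand: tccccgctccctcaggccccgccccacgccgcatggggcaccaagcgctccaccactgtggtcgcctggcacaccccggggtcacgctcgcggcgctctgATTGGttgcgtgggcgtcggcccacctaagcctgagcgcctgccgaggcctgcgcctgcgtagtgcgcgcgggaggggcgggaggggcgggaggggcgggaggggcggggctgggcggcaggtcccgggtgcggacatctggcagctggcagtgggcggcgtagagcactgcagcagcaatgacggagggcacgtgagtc
INSIG1, chr7:155297628-155297927, plus strand: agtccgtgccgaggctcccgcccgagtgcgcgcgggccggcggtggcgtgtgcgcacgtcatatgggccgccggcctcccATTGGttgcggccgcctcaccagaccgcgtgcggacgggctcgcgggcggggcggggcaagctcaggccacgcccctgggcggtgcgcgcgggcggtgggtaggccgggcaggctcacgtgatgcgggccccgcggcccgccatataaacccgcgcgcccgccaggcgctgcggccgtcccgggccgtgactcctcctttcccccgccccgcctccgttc
Of the 12 sterol genes with a promoter 10 (83.3%) hold CCAAT and 0 hold TTTGAA. MSMO1 holds CCAAT at 4 places.

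**Figure D3:**
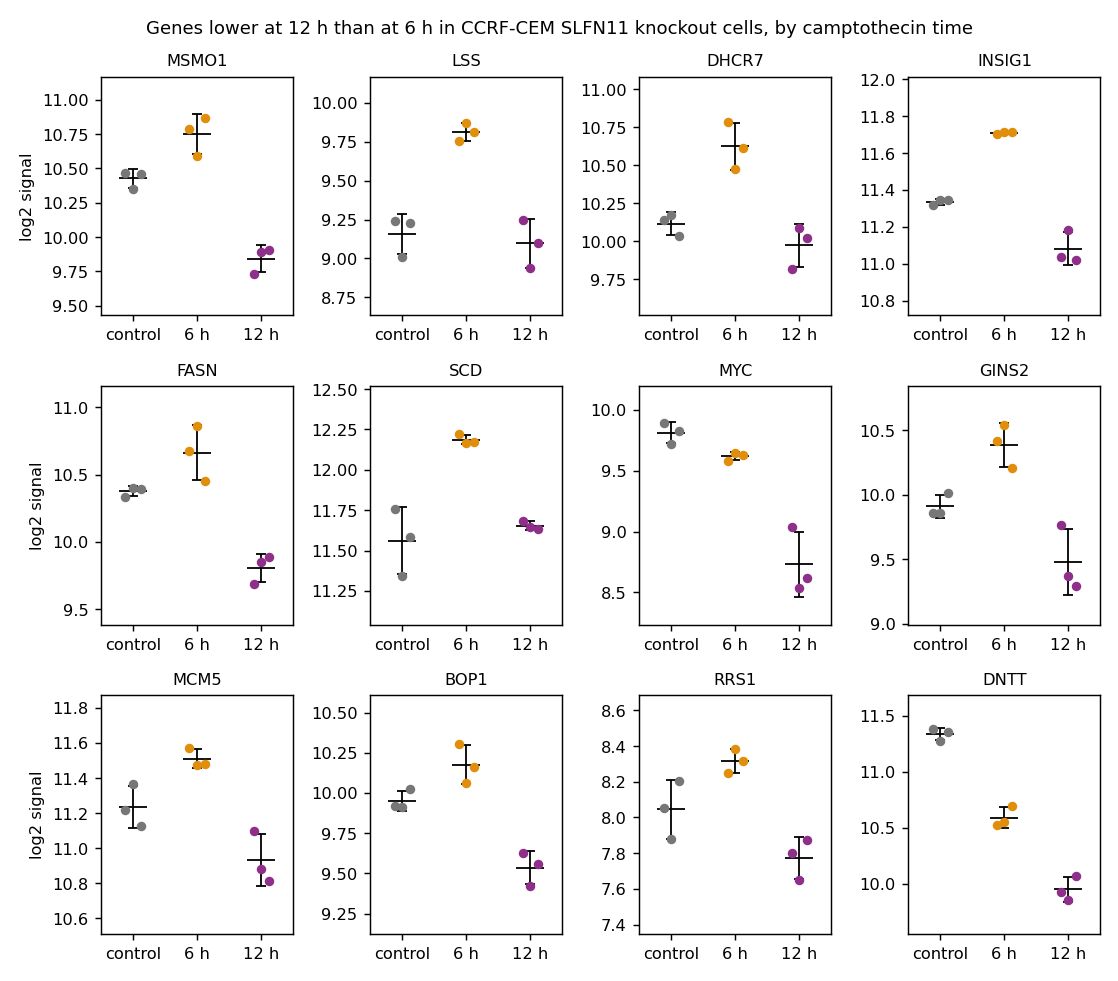
Log2 signal (vertical axes) of 12 genes called lower at 12 h than at 6 h in CCRF-CEM SLFN11 knockout cells, with the untreated group beside them. Points are the 3 arrays of a group and bars the mean and SD; LSS, DHCR7 and SCD stand above control at 6 h and near it at 12 h, MYC and DNTT stand below control at 12 h.

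MYC, the transcription factor, read 9.58, 9.65 and 9.63 at 6 h and 9.04, 8.54 and 8.62 at 12 h, against a control mean of 9.81 ± 0.09 (SD, n = 3). It fell by 0.89 ± 0.14 (log2 change ± SE, limma adjusted p = 0.0116), and all 7 of its probe sets were negative. The arrays at 12 h all lie below those at 6 h, replicate 1 highest among them. Parent cells fell as well, by 1.05 (adjusted p = 0.00166), and the genotype difference was -0.16 (adjusted p = 0.734). TFAP4, a bHLH factor known as a MYC target, fell by 0.81 ± 0.15 (limma adjusted p = 0.0369). The call for MYC was lost without replicate 2 of the 6 h arrays and without replicate 2 or 3 of the 12 h arrays.

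Some genes of ribosome production fell. Of 21 measured ribosome biogenesis genes 2 fell, 0 rose and 19 did not pass, against 0.157% of all genes called lower, with a median of -0.13. BOP1, which processes the RNA of the large subunit, fell by 0.64 ± 0.10 (limma adjusted p = 0.0154) from 10.31, 10.06 and 10.16 to 9.63, 9.42 and 9.56. RRS1, another large-subunit assembly factor, fell by 0.54 ± 0.10 (limma adjusted p = 0.0277). The helper NOLC1 changed by -0.42 (adjusted p = 0.0741), and nucleophosmin, NPM1, by 0.22 (adjusted p = 0.521). RRS1 was not called without any 1 of the 6 arrays, and BOP1 was not without replicate 1 of the 6 h or replicate 2 or 3 of the 12 h arrays. Outside the list, POLR1G, a subunit of RNA polymerase I, fell by 0.74 ± 0.12 (limma adjusted p = 0.0157). The other called genes of this kind, chosen after their values were seen, were POLR1D, a subunit shared by polymerases I and III (-0.66), the assembly factor GRWD1 (-0.64) and the coactivator PPRC1 (-0.58). In parent cells 10 of the 21 fell (2.78% of all genes), with a median of -0.35, and the genotype difference passed for 1 member, NPM1. Of 31 ribosomal protein genes 0 passed, with a median of -0.09, and of 8 small nucleolar RNA host genes 0 passed, with a median of -0.23.

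Immediate early genes, the group named in the study's title, leaned down in the knockout cells. Of 41 measured genes 2 fell (MYC and KLF10), 0 rose and 39 did not pass, against 0.157% of all genes called lower, with a median of -0.24 and 32 negative changes. KLF10, a repressor induced by TGF-beta, fell by 0.70 ± 0.13 (limma adjusted p = 0.0358) from 8.34, 8.37 and 8.13 to 7.61, 7.48 and 7.67, but was not called without any 1 of the 6 arrays. JUNB changed by -0.79 (adjusted p = 0.0536), EGR1 by -0.47 (adjusted p = 0.420), ATF3 by -0.30 (adjusted p = 0.318) and JUN by -0.10 (adjusted p = 0.783). Parent cells had a median of 0.25, with 4 members higher and 1 lower (3% and 2.78% of all genes). The genotype difference passed for 1 member, KLF10, at 0.85 (adjusted p = 0.0453), although the median difference over the list was 0.48 beside 0.03 over all genes. Without replicate 2 of the 6 h arrays, or replicate 2 or 3 of the 12 h arrays, 0 of the 41 passed in knockout cells. Without replicate 1 or 3 of the 6 h arrays MYC alone passed, and without replicate 1 of the 12 h arrays MYC and JUNB did. Of 28 NF-kB and cytokine genes and 18 AP-1 and ATF family genes 0 passed.

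Many DNA replication genes stood above untreated cells at both times, and few changed between them. Of 51 genes 2 fell and 49 did not pass, against 0.157% of all genes called lower, with a median of -0.00. GINS2, a subunit of the replicative helicase, read 10.42, 10.54 and 10.21 at 6 h and 9.77, 9.37 and 9.29 at 12 h. It fell by 0.91 ± 0.17 (log2 change ± SE, limma adjusted p = 0.0351), and all 6 of its probe sets were negative. MCM5, a ring subunit of the same helicase, fell by 0.58 ± 0.12 (limma adjusted p = 0.0447), with 23 of 24 probe sets negative. Both passed without replicate 1 of the 12 h arrays, and neither passed without any of the other 5 arrays. Against untreated cells 21 of the 51 were higher and 1 lower at 6 h (3.52% and 2.92% of all genes) and 23 were higher at 12 h (5.4%), with medians of 0.35 and 0.32. In DU145 knockout cells GINS2 changed by 0.34, and the difference between the lines was 1.26 (adjusted p = 0.00395), where 0.202% of all genes passed above 0.

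Replication-dependent histone genes, transcribed in S phase, stood far below untreated cells at both times. Of 23 measured members of 55 listed 0 passed between the times, with a median of 0.00. At 6 h 19 were lower than in untreated knockout cells (2.92% of all genes) and at 12 h 19 were (2.81%), with medians of -1.06 and -1.11. None of the 17 measured cyclin and E2F genes of the G1 to S transition passed (median 0.02). Of 43 genes of DNA damage checkpoint and repair 0 passed, with a median of 0.11 and 32 positive changes, and 16 topoisomerase and TOP1-lesion repair genes had a median of 0.06 with 0 passing. FANCL, a ubiquitin ligase of the Fanconi anaemia pathway, was at 0.38 and the nuclease subunit ERCC1 at -0.38. TOP1, the target of the drug, read 11.72, 11.81 and 11.89 at 6 h and 11.79, 11.90 and 11.78 at 12 h, a change of 0.02 (adjusted p = 0.958).

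**Figure D4:**
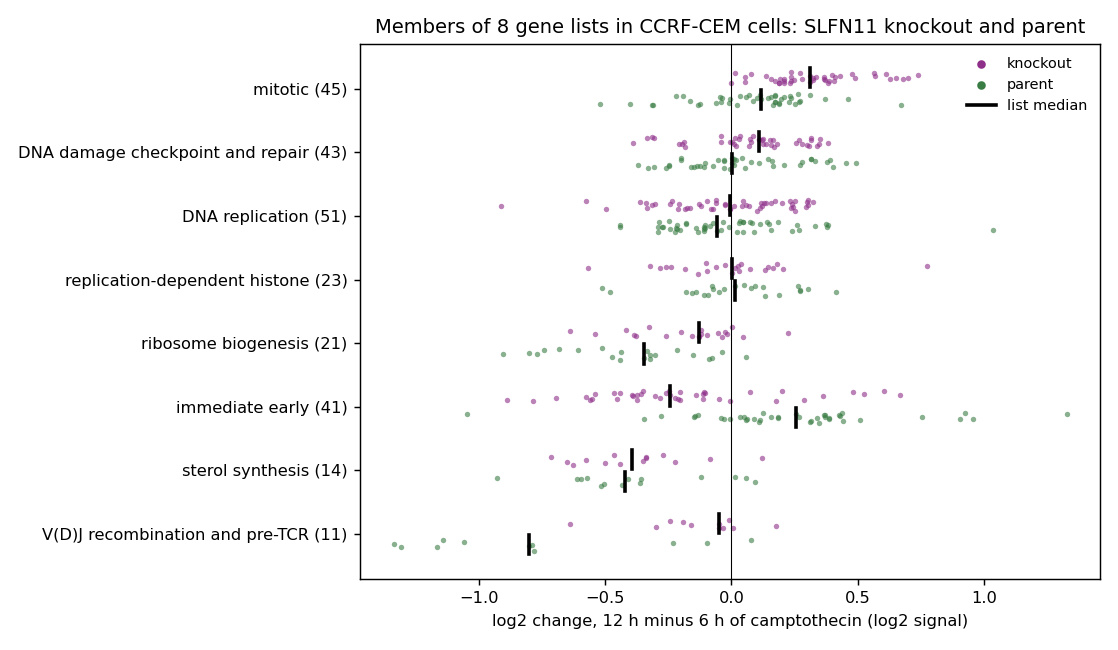
Change between 6 h and 12 h of camptothecin (horizontal axis, log2 signal) of the members of 8 gene lists in CCRF-CEM SLFN11 knockout cells (purple) and parent cells (green); each point is a gene, black bars are list medians and the number of measured members is in brackets. The mitotic list is shifted up in knockout cells, the sterol list down in both genotypes, and the V(D)J list down in parent cells.

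Genes of T-cell receptor rearrangement separated the genotypes. DNTT, the terminal transferase that adds bases at V(D)J junctions, read 10.53, 10.55 and 10.70 at 6 h and 9.93, 9.85 and 10.06 at 12 h. It fell by 0.64 ± 0.10 (log2 change ± SE, limma adjusted p = 0.0154) and was 1.39 below its untreated mean at 12 h. It was the 1 member of 11 that passed in knockout cells (0.157% of all genes were called lower), where the list's median was -0.05. Without replicate 2 or 3 of the 6 h arrays, or replicate 2 of the 12 h arrays, it did not pass. In parent cells 8 of the 11 fell (2.78% of all genes), with a median of -0.80. The genotype difference passed below 0 for 7 of the 11, where 0.503% of all genes did. Over all genes 112 passed below 0, but only 4 did without replicate 1 or 2 of the knockout 6 h arrays. Without replicate 1 of the parent 12 h arrays 3 did, so the 7 do not all hold under these omissions. RAG1, a subunit of the recombinase, changed by -0.24 in knockout and -1.17 in parent cells, and CD1C, a lipid-presenting surface protein of immature thymocytes, by -0.01 and -1.34.

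Some single genes of lymphoid cells rose, while of the fixed lists 0 of 17 T-lineage and 0 of 15 B-lineage and myeloid markers passed, with medians of -0.05 and -0.33. ICOS, a costimulatory receptor of T cells, read 6.12, 6.02 and 6.66 at 6 h and 7.30, 7.36 and 7.50 at 12 h. It rose by 1.12 ± 0.17 (log2 change ± SE, limma adjusted p = 0.0116) and rose in parent cells by 0.96 (adjusted p = 0.00794), but its second brightest probe set stood at -0.07. The adaptor STAP1 (0.82), the G-protein regulator RGS1 (0.81), the lipid kinase PIK3CG (0.40) and the joining segments TRAJ30 (1.70), TRAJ31 (1.46) and TRAJ36 (0.91) of the T-cell receptor alpha locus were also higher, and all were chosen after their values were seen. RGS1 and PIK3CG were not called without any 1 of the 6 arrays. Each joining segment is measured by 1 probe set. TRAJ30 read 3.98, 3.87 and 4.07 and then 5.47, 5.58 and 5.96, a rise larger than the spread of either group. At 6 h TRAJ30 and TRAJ31 (mean 4.08) lay below the median signal of the arrays, 4.8 to 4.84, so the size of their rises is uncertain. HLA-DMA, which loads peptides onto class II molecules, rose by 0.77 ± 0.13 (limma adjusted p = 0.0230). It was the 1 of 16 MHC genes to pass, where 0.359% of all genes were called higher. Its call held under 1 of the 6 omissions of an array. Of its 11 probe sets 5 were positive, and the mean of the 11 moved by -0.07.

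The largest rises among protein-coding genes came from several systems. FERMT2, the integrin activator kindlin-2, read 6.44, 6.14 and 5.47 at 6 h and 7.68, 7.50 and 7.89 at 12 h. It rose by 1.67 ± 0.28 (log2 change ± SE, limma adjusted p = 0.0171), which is 3.18-fold, and 14 of its 20 probe sets were positive. Its call was lost without replicate 2 or 3 of the 6 h or of the 12 h arrays, with averaged probe sets (0.33) and with the second brightest one (0.94). ACTN1, the actin crosslinker alpha-actinin-1, read 7.07, 7.06 and 7.39 and then 8.33, 8.17 and 8.27. Its rise of 1.08 ± 0.13 (limma adjusted p = 0.00555) brought it from 0.99 below its untreated mean to 0.09 above. For ACTN1 14 of 17 probe sets were positive, and its call was lost with averaged probe sets and with the second brightest one. TMEM71, a membrane protein, read 5.88, 5.97 and 6.61 and then 7.27, 7.63 and 7.65. It rose by 1.36 ± 0.18 (limma adjusted p = 0.00736), after standing 1.63 below its control at 6 h. ZFYVE16, an endosomal FYVE-domain protein, read 8.40, 8.13 and 8.15 and then 9.46, 9.24 and 9.29. It rose by 1.10 ± 0.15 (limma adjusted p = 0.00810), and DZIP3, an RNA-binding ubiquitin ligase, by 1.02 ± 0.15 (limma adjusted p = 0.00904) with 26 of 28 probe sets positive.

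Support varied among the other 10 of the 15 largest rises. They were LY96, the co-receptor of TLR4 for lipopolysaccharide (1.37), SHTN1, a regulator of neuronal polarity (1.35), the T-box factor TBX6 (1.25), the CDC42 effector CDC42EP1 (1.23), the bitter taste receptor TAS2R20 (1.19), ADTRP (1.16), ICOS, TSBP1 (1.07), BTBD8 (1.06) and CALCB, a calcitonin gene-related peptide (0.98). TBX6, CDC42EP1 and LY96 were not called without any 1 of the 6 arrays. SHTN1, TAS2R20, TSBP1, BTBD8 and CALCB each kept their call under 1 of the 6 omissions, ICOS under 2 and ADTRP under all 6. Group means of CDC42EP1 (1.96 and 3.19), TSBP1 (2.54 and 3.61) and LY96 (3.36 and 4.73) lie near the lower end of the signals, so the size of their changes is uncertain. For TBX6 6 of 12 probe sets and for CDC42EP1 2 of 6 shared the called sign. Among transcripts without a protein, LINC01619 rose most, by 1.99 ± 0.27 (limma adjusted p = 0.00810), from 4.62, 4.58 and 4.06 to 6.13, 6.98 and 6.10, and was chosen after its values were seen. It had stood 2.17 below its untreated mean at 6 h. Between the times only 6 of its 11 probe sets were positive, and the median change of the 11 was 0.03.

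Among the 15 largest falls of protein-coding genes, those not yet described were of mixed function. CHRM5, a muscarinic receptor, fell by 1.31 ± 0.25 (log2 change ± SE, limma adjusted p = 0.0376), which is 2.47-fold, from 6.23, 6.36 and 5.99 to 4.97, 5.35 and 4.35. FBXO32, the ubiquitin ligase atrogin-1, fell by 0.91 ± 0.17 (limma adjusted p = 0.0325). SPTB, beta-spectrin of the membrane skeleton, fell by 0.71 in knockout cells and rose by 0.76 in parent cells, and the difference of 1.48 passed (adjusted p = 0.0111). The remaining falls were MCRIP1 (-0.88), PAQR4 (-0.84), the tRNA thiolation subunit CTU2 (-0.83), the ubiquitin ligase NEURL1B (-0.73) and CLUH, which binds mRNAs of mitochondrial proteins (-0.72). For SPTB 19 of 32 probe sets, for FBXO32 6 of 11 and for NEURL1B 3 of 7 were negative, where CLUH had 17 of 19. The calls for CHRM5, FBXO32, SPTB, MCRIP1, PAQR4 and CTU2 were each lost under 5 of the 6 omissions of an array, that for NEURL1B under 4 and that for CLUH under all 6. In the noncoding set, chosen after the values were seen, MIR25, a microRNA gene within MCM7, fell by 0.78 ± 0.12 (limma adjusted p = 0.0116) on its 1 probe set, while MCM7 stood at -0.25 (adjusted p = 0.223), and DANCR, a long noncoding RNA, by 0.54. MTRNR2L2, called under every omission, fell by 0.84, but it is a nuclear copy of a mitochondrial sequence and its probe set may read other copies. Larger noncoding falls, of LOC100506869 (-1.75) and DNM3OS (-1.36), were called under 2 and 1 of the 6 omissions. For LOC100506869 4 of 11 probe sets and for DNM3OS 3 of 5 were negative.

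Against untreated knockout cells, 6.44% of all genes passed at 6 h and 8.21% at 12 h. Of the 80 called higher at 12 h than at 6 h, 33 were below their control at 6 h, and 33 were above it at 12 h. CCDC14 stood 0.00 from its control at 6 h and 0.60 above it at 12 h, while TNRC6B, a partner of Argonaute, stood 1.03 below and then 0.27 below. Of the 35 called lower, 12 were above their control at 6 h and 13 were below it at 12 h. Being chosen for the change between the times makes such positions likely, so they describe the genes and support nothing further.

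Of the interferon genes 1 passed in each direction, where 0.359% of all genes were called higher and 0.157% lower. The list's median was 0.07. Of 26 measured members IFI44 rose by 0.54 ± 0.10 (limma adjusted p = 0.0277), ISG15, a ubiquitin-like modifier, fell by 0.54 ± 0.10 (limma adjusted p = 0.0253) and 24 did not pass. Neither passed without replicate 1, 2 or 3 of the 6 h arrays, nor without replicate 2 of the 12 h arrays. SLFN5, a nuclear relative of SLFN11, rose by 0.51 ± 0.09 (limma adjusted p = 0.0277). It went from 10.00, 9.94 and 9.95 to 10.35, 10.53 and 10.55, with 6 of 7 probe sets positive. It was the 1 of 6 Schlafen genes to pass, where 0.359% of all genes were called higher. In parent cells it changed by 0.04, and the genotype difference of -0.47 did not pass (adjusted p = 0.0871). SLFN5 passed under 1 of the 6 omissions, that of replicate 1 of the 12 h arrays.

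Of the 35 lists 25 had no member called, with medians between -0.33 and 0.12. They included 21 unfolded protein and integrated stress response genes, 17 tRNA synthetases and amino acid transporters, 16 heat shock genes, 23 of the BCL2 family and death receptors, 13 CDK inhibitor and GADD45 genes, 22 chromatin remodelers, 16 elongation factors and 17 splicing factors and kinases. They also held 23 genes of glycolysis and hypoxia, 27 of oxidative phosphorylation, 15 of NRF2 and thioredoxin, 15 circadian genes, 12 housekeeping genes and the markers of B and myeloid, epithelial, fibroblast and endothelial cells. Among 26 genes of NOTCH and T-ALL factors MYC alone passed. SLC7A11, the cystine transporter, changed by 0.65 (adjusted p = 0.176) with all 14 probe sets positive, and NR1D1, the clock repressor, by -0.75 (adjusted p = 0.0996) with all 7 negative, both without passing.

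Long genes were set apart from short ones, since camptothecin blocks elongation. The genes that rose had a median genomic span of 47.6 kb, those that fell 13.7 kb and all genes 20 kb, from RefSeq. In bins chosen after the data were seen, 0.156% of the 7685 genes under 10 kb rose, 0.387% of those of 10 to 50 kb, 0.557% of those of 50 to 200 kb and 0.648% of the 1388 over 200 kb. The shares that fell were 0.169%, 0.206%, 0.0825% and 0.072%, with 1 gene behind the last. Median changes between the times were small, -0.05 under 10 kb, -0.03 from 10 to 50 kb, 0.04 from 50 to 200 kb and 0.03 over 200 kb. Against untreated cells the genes over 200 kb had a median of -0.19 at 6 h and -0.19 at 12 h. Of them 16.3% were lower at 6 h and 11.7% at 12 h, against 2.92% and 2.81% of all genes. Probe sets report RNA already made as well as new RNA, so the values do not measure elongation.

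**Figure D5:**
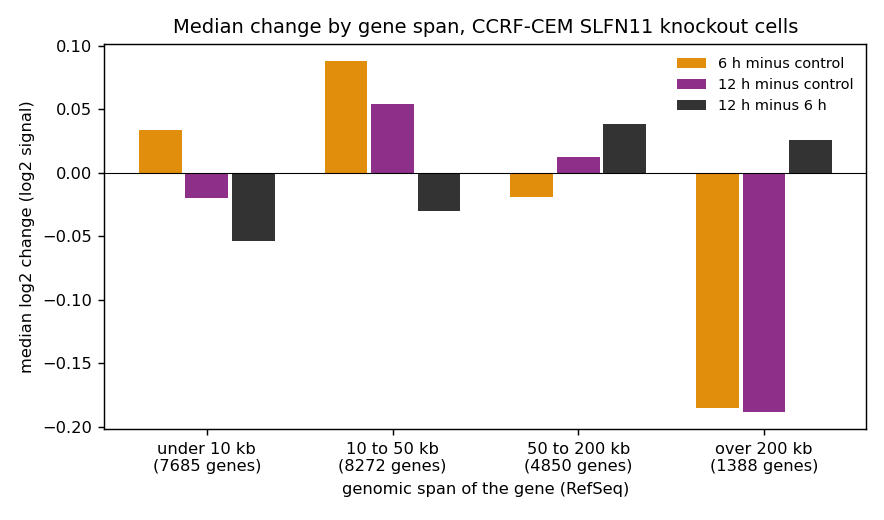
Median log2 change (vertical axis) of genes by genomic span (horizontal axis, 4 bins with their gene counts) in CCRF-CEM SLFN11 knockout cells, for 6 h minus control, 12 h minus control and 12 h minus 6 h. Genes over 200 kb stood at -0.19 against control at both times.

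Whether the change with time differed between parent and knockout cells was tested directly. It passed for 242 genes, 1.09%, with 130 higher in parent and 112 lower. Of the 80 genes that rose in knockout cells the difference passed for 16, and of the 35 that fell for 8. Both sets were chosen for their change on the same knockout arrays. That choice makes a passing difference more likely, so 16 and 8 describe the genes and support nothing further. ADTRP, a regulator of tissue factor pathway inhibitor, read 5.59, 5.36 and 5.26 and then 6.46, 6.46 and 6.75 in knockout cells, a rise of 1.16, while parent cells changed by -0.27. Its difference was -1.43 (adjusted p = 0.0236), though the second brightest probe set moved by -0.26 in knockout cells. ACTN1 differed by -0.84 (adjusted p = 0.0453), since parent cells changed by 0.24. The count was unstable. It was 7, 6 and 282 without replicates 1, 2 and 3 of the knockout 6 h arrays and 136, 67 and 16 without those of the knockout 12 h arrays. For the parent arrays it was 116, 54 and 11 at 6 h and 5, 36 and 34 at 12 h.

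The knockout cells of DU145 and CCRF-CEM differed in their change for 134 genes, 0.602%, with 45 higher in DU145 and 89 lower. ACTN1 changed by -0.17 in DU145 knockout cells, a difference of -1.25 (adjusted p = 3.49e-05), and FERMT2 by 0.33, a difference of -1.34 (adjusted p = 0.0399). The 80 genes that rose and the 35 that fell in CCRF-CEM knockout cells were chosen for their change on the same arrays. That choice makes a passing difference more likely. Of the 80 the difference passed for 26 and of the 35 for 6, which supports nothing further. The count was 87 and 55 without replicates 1 and 2 of the CCRF-CEM 6 h arrays, 63 without replicate 2 of the CCRF-CEM 12 h arrays, 64 without replicate 2 of the DU145 6 h arrays, and 87 and 69 without replicates 1 and 2 of the DU145 12 h arrays.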

How the data were processed

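RNA of 36 arrays was measured, 18 from CCRF-CEM cells. Per the submitters' processing notes RMA and Partek, without versions, were used to make the log2 values, which entered the fits as the authors deposited them. Array version and genome build are not given in the sources used here. Only probe sets with exactly 1 symbol were kept, and the brightest over 36 arrays stood for each of 22260 genes. No low signal was filtered. Contrasts were fitted with limma 3.58.1 under R 4.3.3, using lmFit and eBayes with no variance trend, on the 18 CCRF-CEM arrays in 6 groups with 12 residual degrees of freedom, and the comparison of the lines on 36 arrays with 24. The Benjamini-Hochberg method adjusted p over all genes, two-sided, and a gene passed below 0.05. The fit was tested on simulated data.

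Members and gene lists were chosen with earlier results of these data known. Named were SLFN11, the 15 protein-coding genes with the largest change in each direction among those passing with no overlap of the times, 8 per direction for the genotype difference, 4 for the difference of the lines, and up to 4 passing members per list in each direction. Replicate numbers were checked for pairing by the correlation of deviations of same-numbered arrays, which was 0.0169, 0.00131 and 0.0398, so the numbers were not used to pair arrays. The number of arrays limits the precision. Alternatives are given in the closing section. Figures were drawn with matplotlib.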

Additional observations from a re-analysis of the deposited data

Results flagged for a closer look

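The difference between genotypes or lines was tested directly for every gene, and the genes named in the text that passed are given here as values. The genotype difference (parent change minus knockout change) passed for 242 genes. Among genes that rose in knockout cells the difference was -1.43 for ADTRP, -0.84 for ACTN1, -0.66 for HMMR, -1.41 for TRAJ30 and -1.34 for GOLGA8O, which has close copies in the genome. For genes that fell it was 1.18 for FBXO32, 0.81 for MSMO1, 1.15 for PAQR4, 1.48 for SPTB and 0.85 for KLF10, and -0.67 for DNTT, which fell further in parent cells.

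The largest positive differences were 2.25 for the Fc receptor-like gene FCRL3, 2.09 for PNLIPRP3, 2.08 for the chemokine CCL19, 2.04 for FSTL4, 1.98 for GALNT14, 1.92 for EPS8, 1.86 for SCN7A and 1.79 for TMEM132B. The most negative were -2.10 for S100A8, -1.68 for the chemokine CCL7, -1.56 for RRM2B, -1.41 for RHOU, -1.39 for EXPH5 and -1.33 for CD1C. Among other genes of the lists it was -0.84 for CCNB1, -0.70 for ECT2, -1.02 for NPM1 and -0.92 for RAG1.

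Between the knockout cells of the 2 lines the change differed for 134 genes, as DU145 minus CCRF-CEM. The difference was -1.34 for FERMT2, -1.36 for SHTN1, -1.25 for CDC42EP1, -1.25 for ACTN1, 1.26 for GINS2 and 0.82 for CLUH. For mitotic and cell cycle genes it was -1.32 for KIF20A, -1.33 for CENPA, -1.06 for CCNB1, -0.90 for PLK1, -0.89 for CENPE, -0.88 for CDKN3, -0.83 for DLGAP5, -0.83 for PRR11, -0.71 for CENPF and -0.63 for HMMR. It was 0.82 for MCM5, 0.58 for DHCR7 and 0.71 for GRWD1, and -1.41 for TRAJ30, -1.26 for TRAJ31, -1.97 for LINC01619, -1.08 for TNRC6B and -0.98 for DYNC2H1. For the heat shock gene DNAJB4 it was -1.07 and for GADD45B 0.80. The largest were 1.56 for CNIH2, 1.43 for AQP3, 1.42 for ADAP2 and 1.37 for BHLHE41, and -2.80 for PTPRG, -2.34 for LPP, -1.62 for EXOC6B and -1.55 for TBC1D5.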

How the results depend on the processing

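The 115 genes became 260 in 1 fit of all 36 arrays, 0 with only the arrays of the groups compared, 301 with a variance trend and robust moderation, 20 with arrays shifted to equal housekeeping medians (90% higher, against 69.6%), 520 with a gene's probe sets averaged, 1 when every probe set was tested and 14 below 0.01. With 59.2% the all-array fit also had a lower share of higher genes. It became 71 with the second brightest probe set, an alternative chosen after seeing the data, which shared 13 genes with the 115. Leaving out an array gave 21 to 109. The genotype difference, 242 genes, became 540, 19, 922, 2645 (99.4% higher, against 53.7%), 125 (42.4% higher), 0 and 1 under the same settings in that order, and 5 to 282 with an array left out. Cyclic loess put its share of higher genes at 44.7%. The line difference, 134 genes, became 5 with only the arrays compared, 216 with the trend, 69 with housekeeping medians (53.6% higher, against 33.6%), 537 with averaged probe sets, 301 with every probe set (25.6% higher), 27 below 0.01 (14.8% higher), and 55 to 166 with an array left out. Array weights, a level filter and cyclic loess kept all these counts within 1.5 times. The housekeeping medians of the arrays ranged over 0.787. The cause of these moves was not tested.

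Same-numbered arrays did not deviate together, so the replicate block stands here only. With it 90 genes passed for the change, 313 for the genotype difference and 141 for the line difference, and 2 of 3 arrays at 6 h correlated best with their own number.

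With averaged probe sets TBX6 reversed to -0.14, HLA-DMA to -0.072, GALNT14 to -0.019, SCN7A to -0.18 and BHLHE41 to -0.17, the last 3 in the differences of genotype or line. With the second brightest probe set TBX6 stood at -0.16, CDC42EP1 at -0.053, ADTRP at -0.26, ICOS at -0.072 and NEURL1B at 0.36. MSMO1 lost its call under 1 of 17 alternatives and FASN, INSIG1, ZFYVE16 and DZIP3 under 2, whereas KIF2C lost it under 15. Mitotic genes called higher numbered 0 to 18 and sterol genes called lower 0 to 7 over the alternatives, with medians of 0.28 to 0.34 and -0.45 to -0.33.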
